A study of Oryzias latipes with 18 samples.

Results

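The bZIP transcription factor genes of medaka (Oryzias latipes) are described here by the accessible chromatin around them during embryogenesis. They are the 80 genes that the study's annotation of transcription factors (TFs) placed in the bZIP family, out of 1646 TF genes, and no accessibility value entered this choice. For each gene, all accessible elements with a midpoint up to 50 kb from the transcription start site (TSS) were collected. This gave 2156 pairs of a gene and an element and 1943 distinct elements, 1.30% of the 149539 elements of the deposited list. The remaining 1566 TF genes served for comparison. Of these, 113 lay on unplaced scaffolds, where the 50 kb can be cut short.

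The elements came from ATAC-seq, in which a transposase inserts sequencing adapters where DNA is open. Whole embryos, offspring of the medaka lines d-rR-Tg(olvas-GFP) and Qurt, were sampled at stages 11, 15, 19, 25, 29, 32, 36, 38 and 40, with 2 replicates each and 18 libraries in all. The authors merged the replicates of a stage, called peaks and merged the peaks of all stages into a single list, so that no value below belongs to a stage, a replicate or a cell type, and none carries an error between replicates. The label of the samples as whole embryos could therefore not be checked against markers. Each element has a peak score, which is taken to be the −log10 of the peak caller's q value, and a whole number, taken to count the peaks of single stages that were joined in it. The score grows with sequencing depth as well as with accessibility, and the depth of the libraries is not known from the list. A count of 9 merged peaks equals the number of stages, but which stages contributed is not recorded.

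Proteins of the bZIP family bind DNA through a basic region and pair through a leucine zipper, as homodimers or heterodimers, so that the choice of partner sets the sequence they recognise. Fos and Jun proteins form the AP-1 factors that answer growth signals and stress, CREB proteins answer cAMP, and ATF4, ATF6 and XBP1 answer stress of translation and of the endoplasmic reticulum. The CNC proteins with their small Maf partners drive antioxidant and blood genes, C/EBP proteins act in fat, liver and myeloid cells, and the PAR proteins carry circadian output. Many of these proteins are known to be switched on by phosphorylation, splicing, cleavage or release from an inhibitor rather than by new transcription alone.

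Of the 80 genes, 79 lay on 23 of the 24 chromosomes and 1 on an unplaced scaffold. The study's annotation named 47 of them and RefSeq a further 11, and the other 22 are given by the identifiers of the annotation. At 65 genes the annotated span shared at least 50% of its joint length with a RefSeq gene of the assembly ASM223467v1, and 6 genes overlapped no RefSeq gene. The names sort 56 genes into 12 subfamilies, and 2 named genes, zgc:153924 and si:ch211-153j24.3, into none.

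The number of elements around bZIP genes was close to that around other TF genes. A bZIP gene had a median of 28 elements within 50 kb of its TSS (quartiles 21 and 33.2, range 6 to 43), against 25 for the other TF genes (quartiles 17 and 32, range 0 to 64). The means were 26.9 ± 8.27 elements for bZIP genes (SD over 80 genes) and 24.4 ± 11.8 elements for the other TF genes (SD over 1566 genes), so the medians lay closer together than the spread within either set. The difference of 3 elements between the medians became 1 within 25 kb or without the C2H2 zinc finger genes and 5 within 100 kb. At 35 elements or more stood 16 bZIP genes (20%), against 290 other TF genes (18.5%). Over all TF genes this share was 18.6%, which the bZIP share nearly equals. For genes on chromosomes (79 bZIP and 1453 other TF genes), the median number of protein-coding RefSeq genes within 50 kb was 5 in both sets. The direction of the difference in elements varied with this number. With 0 to 3 coding genes the medians were 25 elements at bZIP genes and 27 at other TF genes. With 4 to 6 they were 28.5 and 24, and with 7 or more 28 and 26. bZIP genes were shorter, with a median annotated length of 6.01 kb against 8.45 kb.

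bZIP genes and other TF genes differed more in the strength of the elements at the TSS than in their presence. An element within 1 kb of the TSS, called a TSS element below, was found at 71 of 80 bZIP genes (88.8%, 95% Wilson interval 80.0 to 94.0), against 1313 of 1566 other TF genes (83.8%). Over all TF genes, bZIP genes included, the share was 84.1%. The difference of 4.91 percentage points changed sign to −0.622 when the C2H2 zinc finger genes were left out of the comparison, and it was 1.36 with a limit of 500 bp. It was 1.99 without chromosome 2 and 7.45 without chromosome 6. The strongest TSS element of a bZIP gene had a median score of 216 (quartiles 116 and 407, range 9.74 to 735), against 112 for the other TF genes (quartiles 49.4 and 234). The 2 distributions overlapped over most of their range. A score above 400 was reached at the TSS of 19 bZIP genes (23.8%), against 135 other TF genes (8.62%), with 9.36% over all TF genes.

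The strongest TSS elements of bZIP genes also reached 9 merged peaks more often. At 57 of 80 bZIP genes (71.2%, 60.5 to 80.0) the strongest TSS element was merged from 9 or more peaks, against 715 other TF genes (45.7%). Over all TF genes, bZIP genes included, the share was 46.9%. At 47 of the 57 genes the number was exactly 9, as it was at 556 of the 715 other TF genes. A limit of 10 peaks left 10 of 80 bZIP genes (12.5%) and 159 of 1566 other TF genes. The difference between the sets was much smaller at that limit. These intervals cover counting error only, and since related genes are not independent samples no test was made of the difference. At 4 bZIP genes the strongest TSS element came from a single peak, a count given here without its share over other TF genes.

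Median scores were higher close to the TSS than far from it, but distance did not separate strong elements from weak ones. At bZIP genes, 317 of the 427 pairs with an element merged from 9 or more peaks lay 5 to 50 kb from the TSS, as did 1852 of all 2156 pairs. At other TF genes these counts were 4571 of 5892 and 32702 of 38157. Most of the window lies at that distance, so the count is not read as a trait of bZIP genes. Within 1 kb the lower quartile of the score was 28.5 at bZIP genes. Within 1 kb the median score over all elements, the weaker ones included, was 119 at bZIP genes and 64.5 at other TF genes, and 58.6% against 39.1% of these elements were merged from 9 or more peaks. From 1 to 5 kb the medians were 44.3 and 34.9. From 5 to 50 kb they were 34.9 at bZIP genes and 34.1 at other TF genes, with 17.1% against 14.0% of elements merged from 9 or more peaks. The median scores thus differed most close to the TSS. For the elements beyond 5 kb, which make up 1852 of the 2156 pairs, they were nearly equal, with upper quartiles of 81.8 and 73.7. Single 5-kb bins differed in both directions. The medians were 48.8 against 35.7 at 5 to 10 kb upstream, and 23.2 against 35.5 at 40 to 45 kb upstream. Over the whole list the median score was 30.8, and 12.5% of the elements were merged from 9 or more peaks.

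**Figure D1:**
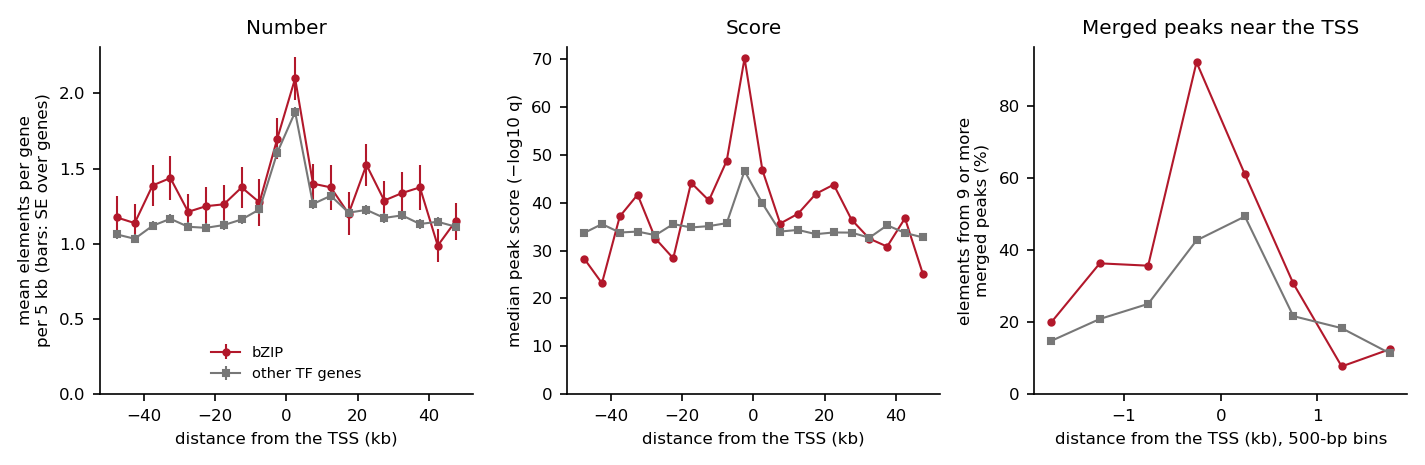
Accessible elements by distance from the TSS at 80 bZIP genes (red circles) and 1566 other TF genes (grey squares). The panels show the mean number of elements per gene in 5-kb bins with the SE over genes, the median peak score in the same bins, and the percentage of elements merged from 9 or more peaks in 500-bp bins near the TSS. The score of bZIP genes stands above that of other TF genes most in the 5 kb upstream of the TSS (70.2 against 46.6), and the share of elements merged from 9 or more peaks is highest in the 500 bp upstream of it at bZIP genes (92.3%, against 42.7% at other TF genes), while at other TF genes it is highest in the first 500 bp downstream (49.4%, against 61.1% at bZIP genes there).

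At higher resolution, the side just upstream of the TSS stood out. In the 500 bp upstream of the TSS lay 39 elements of 37 bZIP genes, with a median score of 216 and 92.3% of them merged from 9 or more peaks. The 662 elements of other TF genes in that interval had a median score of 88.6, and 42.7% were merged from 9 or more peaks. In the first 500 bp downstream the median scores were 133 at bZIP genes and 79.6 at other TF genes. Between 500 and 1000 bp downstream, 39 of the bZIP genes (48.8%) had an element, against 26.1% of other TF genes. These elements were weak in both sets, with median scores of 28.9 at bZIP genes and 32.4 at other TF genes. Of them, 30.8% and 21.7% were merged from 9 or more peaks. This bin and the 500 bp upstream of the TSS were singled out after the values of the bins had been seen. The midpoint of the strongest TSS element lay at a median of −29 bp at bZIP genes and 11 bp at other TF genes, and its median width was 359 and 330 bp.

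More than 1 TSS element was present at 42 bZIP genes (52.5%), against 692 other TF genes (44.2%), with 44.6% over all TF genes. The TSS element was at the same time the strongest element of the whole 50-kb window at 23 bZIP genes (28.7%, 20.0 to 39.5), against 284 other TF genes (18.1%). Over all TF genes, bZIP genes included, this share was 18.7%. The interval again covers counting error only, and no test was made. At 14 further bZIP genes the strongest element lay between 1 and 10 kb from the TSS. It lay beyond 10 kb at 43 of 80 bZIP genes, against 1046 of 1566 other TF genes and 1089 of all 1646 TF genes. A strongest element beyond 10 kb was thus the usual case, and less common at bZIP genes. It was merged from 9 or more peaks at 72 of the 80 genes, but no such share is given here for other TF genes, so this is not read as a trait of bZIP genes. Its median distance was 11.9 kb at bZIP genes and 20.4 kb at other TF genes, and its median score was 442 against 298.

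**Figure D2:**
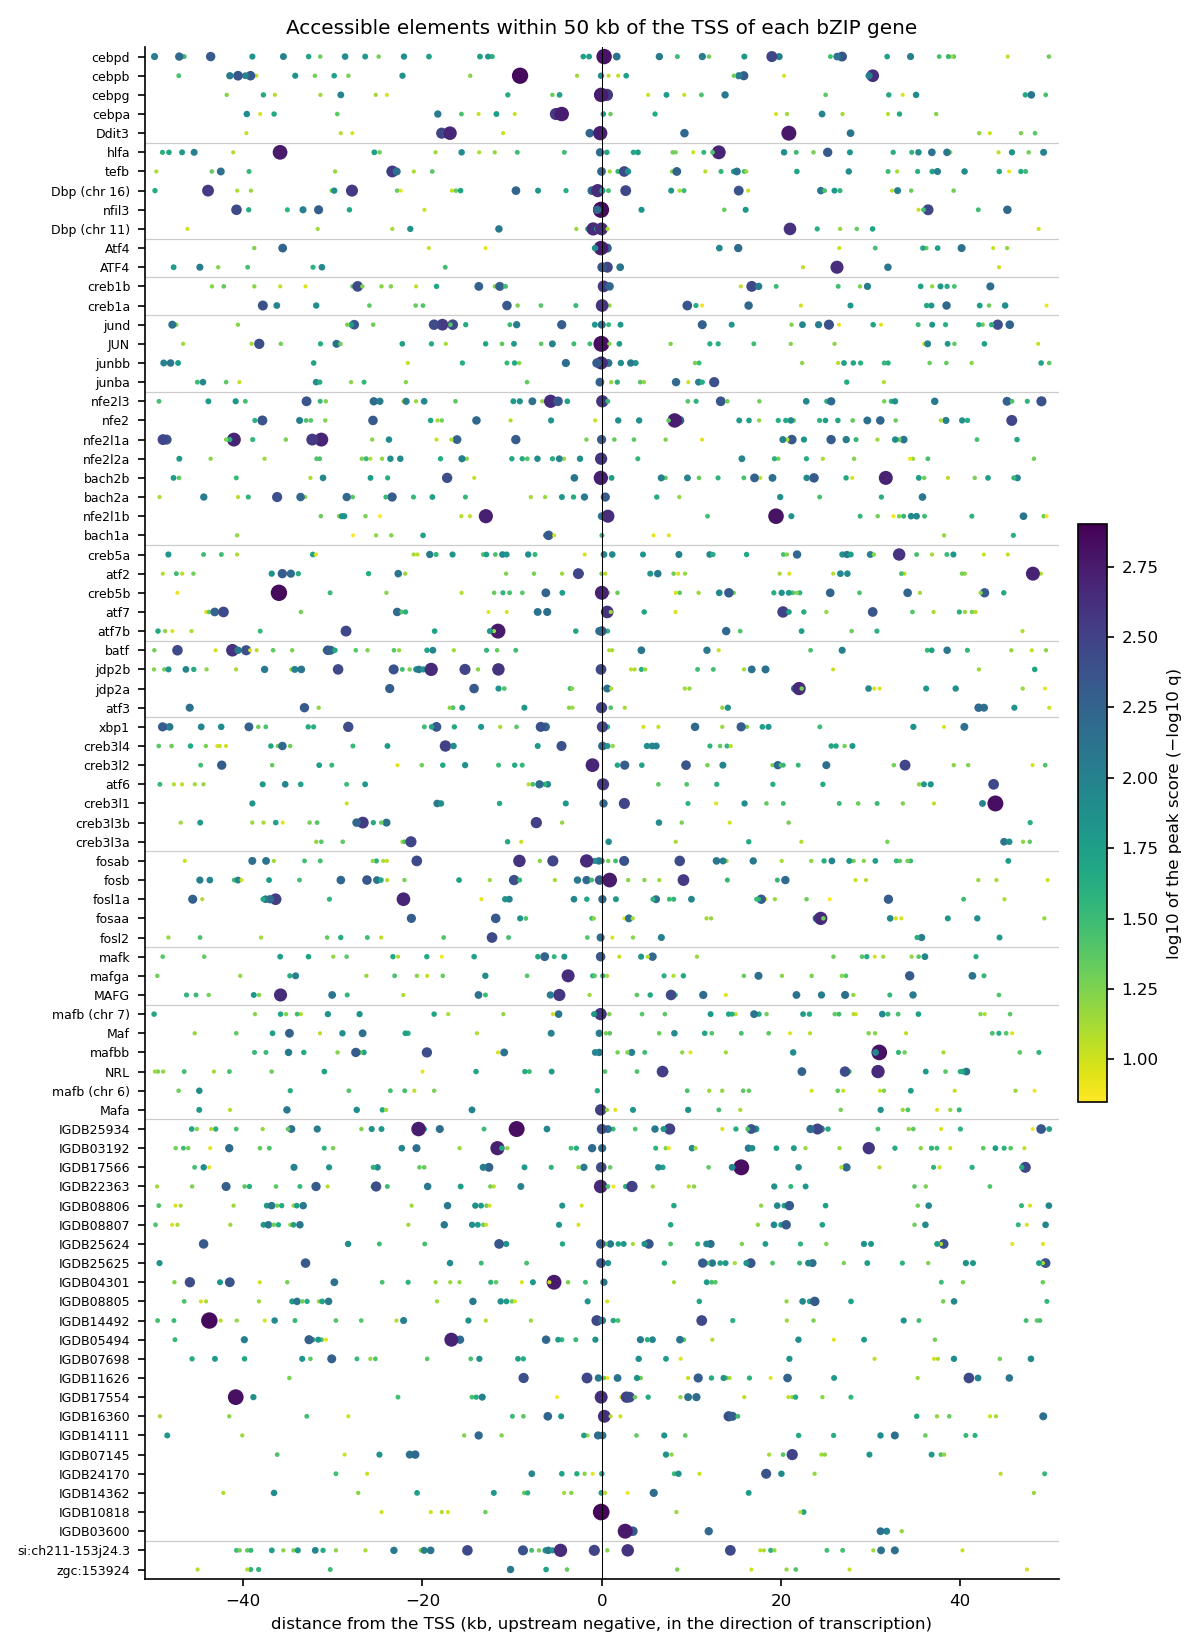
Accessible elements up to 50 kb from the TSSs of the 80 bZIP genes, by distance from the TSS in kb along the direction of transcription. Rows are genes, ordered by subfamily and then by number of elements, and larger and darker points have higher peak scores. Dark points are gathered at the TSS in many rows, while in others, such as creb5b, cebpb and mafbb, the darkest point lies 9.11 to 36.0 kb away. Far points need not belong to the gene of their row.

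Among the 22 TF families with at least 10 genes in the annotation, bZIP genes stood at rank 2 by the median score of the strongest TSS element, after the E2F family with 268 and before the thyroid hormone receptor-like family with 211. They stood at rank 7 by the number of elements and at rank 11 by the share of genes with a TSS element. The large developmental families had as many elements as bZIP genes but lower TSS scores. The bHLH genes had a median of 28 elements and a TSS score of 144, the Fork head genes 28.5 elements and 74.6, and the homeobox genes 29 elements and 68.4. The C2H2 zinc finger genes, with 578 genes the largest family, had 19 elements and a TSS score of 108.

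The AP-1 genes comprise the Fos and Jun genes with ATF3, JDP2 and BATF, 13 genes in all. Each of them had a TSS element, against 84.1% of all TF genes. All 13 were matched to RefSeq genes, and among matched bZIP genes this share was 96.9%. Their median score at the TSS was 154, below the 216 of all bZIP genes. JUN, the classical partner of Fos proteins, had one of the highest TSS scores of all bZIP genes. Its element on chromosome 17, from 15911009 to 15911313, had a score of 671, was merged from 9 peaks and covered the TSS. The other Jun genes were lower, with 440 at junbb, 179 at junba and 142 at jund. The number of elements within 50 kb was highest at jund with 36 and lowest at junba with 22.

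The 5 Fos genes had a median of 30 elements and a median TSS score of 146, lower than that of all but the Maf subfamilies. fosb carried a TSS element with a score of 564 on chromosome 13, from 14079176 to 14079566, centred 0.889 kb downstream of the TSS and inside the gene. At fosl1a and fosl2, which encode Fos-related antigens, the TSS scores were 154 and 146, from elements merged from 10 and 12 peaks. fosl2 had 18 elements, the fewest of the Fos genes, and fosab the most with 39. Among the AP-1 partners, atf3, a stress-induced repressor, had a TSS score of 312 and batf, which acts in lymphocytes, a score of 12.1 from a single peak. batf nevertheless had 38 elements in its window, and the strongest of them lay 41.2 kb upstream with a score of 404.

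Fos and jdp2 genes lie next to each other on 2 chromosomes, so that their windows hold largely the same elements. On chromosome 22, fosaa and jdp2a are separated by 240 bp and run in the same direction, and 20 of the 21 elements around jdp2a are also around fosaa. On chromosome 24, fosab, si:ch211-153j24.3, whose name gives no subfamily, and jdp2b lie with their outer TSSs 20.7 kb apart, and their windows together hold 41 elements. Elements with a score above 100 numbered 5 of 21 on chromosome 22 and 12 of 41 on chromosome 24, and elements merged from 9 or more peaks numbered 4 and 11. The chromosome 24 locus thus held more elements of each kind over a wider joint window.

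**Figure D3:**
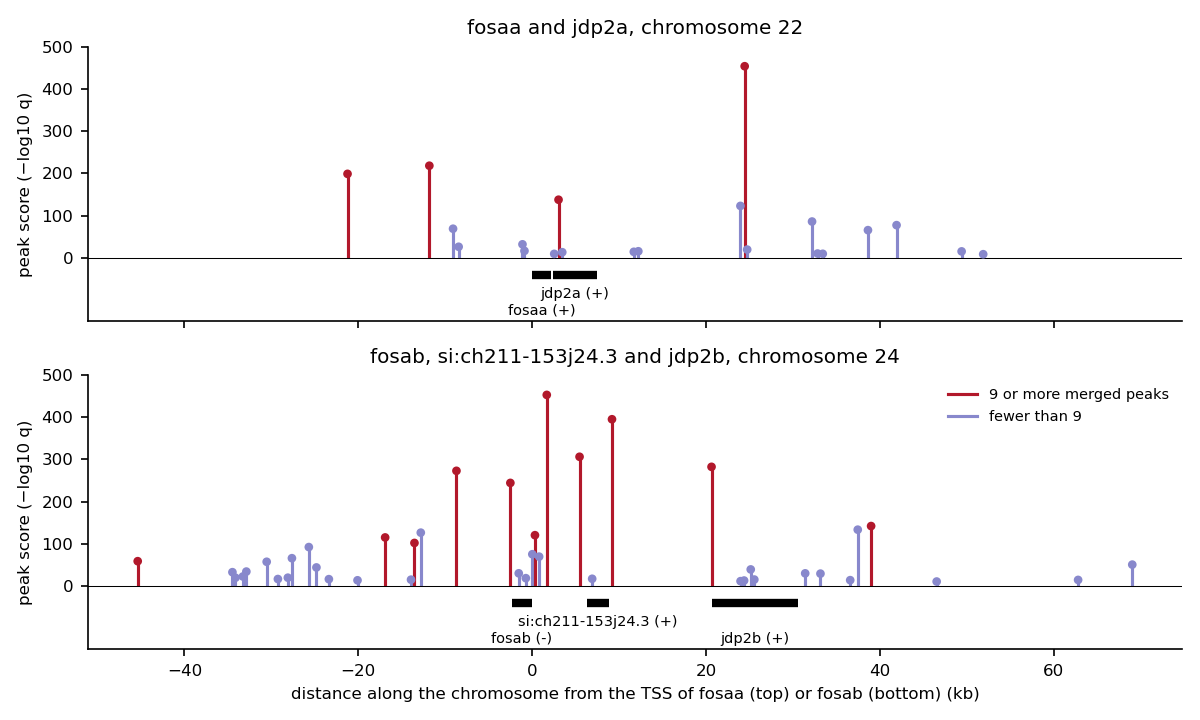
Peak scores of the elements around fosaa and jdp2a on chromosome 22 (top) and around fosab, si:ch211-153j24.3 and jdp2b on chromosome 24 (bottom), by distance in kb from the TSS of fosaa or fosab along the chromosome. Black bars are the annotated genes with their strand, and red lines mark elements merged from 9 or more peaks. On chromosome 22 a single element, 24.4 kb from the TSS of fosaa, reaches 454, and on chromosome 24 the element 1.68 kb upstream of fosab reaches 453.

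The strongest elements of these loci were placed differently. On chromosome 22 the element with a score of 454 lay 24.4 kb downstream of the TSS of fosaa and 22.03 kb downstream of that of jdp2a, beyond both genes, from 13266211 to 13266453. The TSS element of fosaa had a score of 16.2 from 1 peak and that of jdp2a a score of 138 from 9 peaks. On chromosome 24 the element with a score of 453, from 17156392 to 17156795, lay 1.68 kb upstream of the TSS of fosab, which itself had a TSS element with a score of 120. An element with a score of 395, from 17163954 to 17164238, followed between si:ch211-153j24.3 and jdp2b, and the TSS elements of these genes had scores of 306 and 282. At both loci, then, the strongest element lay outside the 1 kb around any of these TSSs.

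The CREB and ATF genes that answer cAMP and stress kinases had strong elements at most TSSs. creb1a and creb1b, which encode the cAMP response element-binding protein, had TSS scores of 409 and 350, and in both genes this element was the strongest within 50 kb. Among the ATF2, ATF7 and CREB5 genes the TSS scores were spread from 19.0 at atf2 to 505 at creb5b, with 406 at atf7, 225 at atf7b and 90.8 at creb5a. creb5b had a still stronger element of 708, 36.0 kb upstream of its TSS on chromosome 16, from 16211896 to 16212216. The same score was the highest within 50 kb of hoxa13b, hoxa11b, hoxa10b, hoxa9b and HOXA2, so this element appears to lie in their windows too. creb5a had 41 elements, more than any other named bZIP gene, and atf7b had 21, the fewest of these 5 genes. A weak TSS element thus did not go with few elements in this subfamily.

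The genes of the stress responses differed in the number of elements. The ATF4 genes, whose product is translated when initiation is blocked, had 17 elements on chromosome 1 (Atf4) and 14 on chromosome 8 (ATF4), among the lowest numbers of the family. Their TSS scores were nevertheless 554 and 294, each from an element merged from 9 peaks. Ddit3, which encodes the stress-induced C/EBP relative CHOP, had 16 elements and a TSS score of 530. Few elements around these genes therefore went with TSS scores above the bZIP median of 216.

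Of the genes whose proteins reside in or act for the endoplasmic reticulum, xbp1, the spliced effector of the unfolded protein response, had 34 elements and a TSS score of 309. atf6, whose product is cleaved in the Golgi, had a TSS score of 375 from an element merged from 12 peaks. In both genes the TSS element was the strongest of the window. The related CREB3-like genes were weaker, with TSS scores of 179 at creb3l4, 158 at creb3l1 and 81.9 at creb3l3a. creb3l3a had 17 elements, the fewest of this group. creb3l3b, known with its relatives from liver and intestine, had no TSS element, and the nearest element lay 4.42 kb away. creb3l2 had none either by the limit of 1 kb, but an element with a score of 485, on chromosome 23 from 20601060 to 20601328, lay just outside it, 1.03 kb upstream.

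CNC and BACH genes had the largest number of elements among subfamilies, with a median of 34, and a median TSS score of 292. nfe2l2a, which encodes the antioxidant factor NRF2, had a TSS score of 382, the strongest element of its window. nfe2l3 had 40 elements and a TSS element of 385 merged from 17 peaks. nfe2l1b had a TSS score of 439 from 16 peaks, and nfe2l1a a score of 202 from 9. The erythroid gene nfe2 stood apart with a TSS score of 10.4 from 1 peak, while an element of 545, on chromosome 7 from 12838242 to 12838536, lay 8.15 kb downstream of its TSS and 38 elements lay in its window. bach2b, a repressor known from lymphocytes, had a TSS score of 533, against 198 at bach2a. bach1a, whose mammalian product represses haem oxygenase, had 13 elements and a TSS score of 33.3.

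Maf genes had weaker TSS elements. The median was 115 for the 6 large Maf genes, which act in lens, hindbrain and pancreas, and 128 for the 2 small Maf genes with a TSS element. mafb on chromosome 7 was the strongest large Maf gene with 387 and had 38 elements, and Mafa followed with 328 and 21 elements. Maf, mafbb and NRL, the rod photoreceptor factor, had TSS scores of 114, 116 and 25.9. The annotated span of Maf shares only 3.48% of its joint length with a RefSeq gene, so its TSS is uncertain. At mafbb a score of 646 was reached 31.0 kb downstream of the TSS, on chromosome 5 from 26290064 to 26290416. The highest TSS score among the homeobox genes was the same, 646, so this element appears to be the TSS element of a neighbouring homeobox gene. The annotation also gives the name mafb to a gene on chromosome 6 with a TSS score of 42.8, whose span shares 66.8% of its joint length with a RefSeq gene that has no name, while the RefSeq gene mafb is the one on chromosome 7, so that the name on chromosome 6 is uncertain. The small Maf genes mafk and mafga had TSS scores of 216 and 39.5. mafk had 30 elements, and its TSS element was merged from 18 peaks, the most of any of these 71 strongest TSS elements. MAFG had 27 elements, none of them at the annotated TSS. Its annotated span shares only 22.2% of its joint length with a RefSeq gene, which is annotated as a long noncoding RNA.

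**Figure D4:**
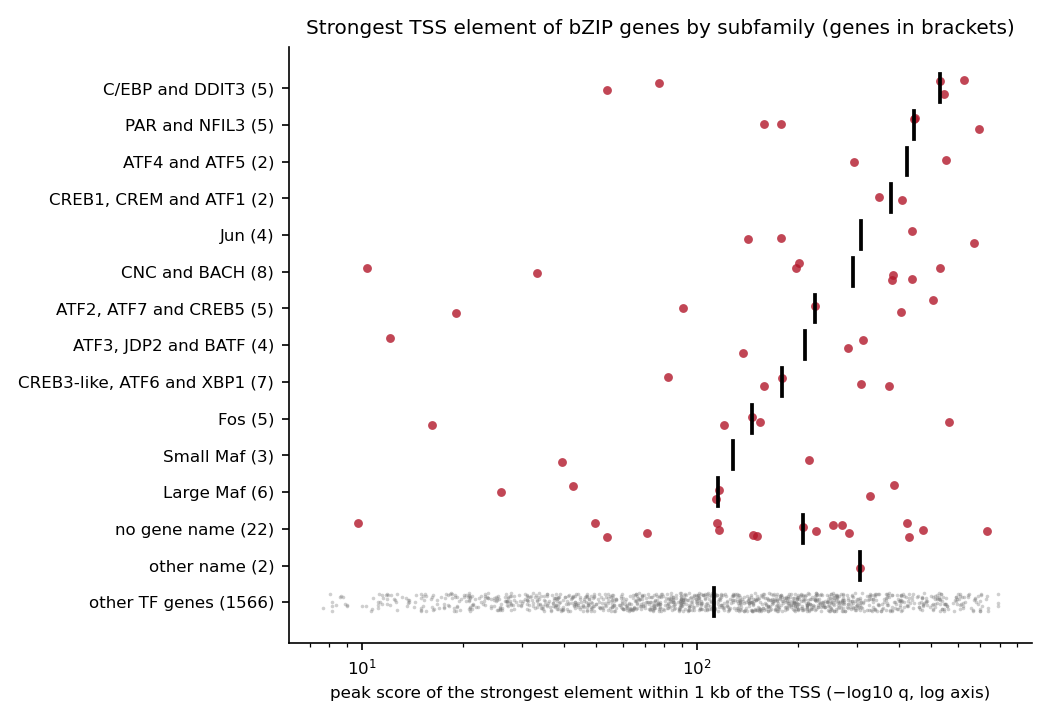
Peak score of the strongest element within 1 kb of the TSS, on a log axis, for bZIP genes by subfamily (red) and for the other TF genes (grey), with the median of each row as a black bar. Numbers in brackets count all genes of a row, and genes without a TSS element have no point. The C/EBP and DDIT3 genes have the highest median (530) and the large Maf genes the lowest of the named subfamilies (115), close to the 112 of the other TF genes, and single genes are spread over much of the range in most rows.

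The highest median TSS scores belonged to the C/EBP and DDIT3 genes (530) and to the PAR and NFIL3 genes (444), but both groups were split. cebpd, induced in acute inflammation, had a TSS score of 625, and cebpg, a partner without an activation domain, 548. cebpb and cebpa, the factors of fat and liver cells, had TSS scores of 76.9 and 54.0. At both of these genes a far stronger element lay upstream: 701 at 9.11 kb for cebpb, on chromosome 7 from 21881849 to 21882431, and 548 at 4.46 kb for cebpa, on chromosome 3 from 37775494 to 37775927. The element upstream of cebpa is the TSS element of cebpg, which lies 4.52 kb from cebpa in the opposite direction, and all 21 elements around cebpa were also among the 24 around cebpg. nfil3, a repressor of circadian output genes, had a TSS score of 694, the highest of a bZIP gene on a chromosome, although 18 elements lay in its window. That element, on chromosome 12 from 27601304 to 27601662, covered the TSS and was merged from 9 peaks.

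Of the PAR genes, which encode activators of the same circadian sites, the Dbp genes on chromosomes 11 and 16 had nearly equal TSS scores of 448 and 444, with 17 and 33 elements. The other PAR genes had lower TSS scores, 178 at tefb and 158 at hlfa. hlfa had 40 elements, the most of this subfamily, and an element of 564 at 35.9 kb upstream. The annotated spans of hlfa and tefb share only 14.4% and 44.6% of their joint length with a RefSeq gene, so their TSSs are less certain.

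The 22 genes without a name covered nearly the whole range. IGDB10818, on an unplaced scaffold, had the highest TSS score of all bZIP genes, 735, and 9 elements. Its TSS lies at position 22856 of the scaffold, so its window is cut short on that side and this count is not comparable with the others. IGDB25934 on chromosome 9 had the most elements, 43, and a TSS score of 254, and IGDB03192 on chromosome 16 had 42 and 151. The RefSeq gene matched to IGDB03192, over 74.4% of the joint length, is annotated as a long noncoding RNA. IGDB14492 on chromosome 14 had an element of 710, 43.8 kb upstream of its TSS. IGDB03600 on chromosome 17 had the fewest elements, 6, with a score of 583 at 2.62 kb downstream of its annotated TSS. Its span shares 32.6% of the joint length with a RefSeq long noncoding RNA. IGDB08805, IGDB08806 and IGDB08807 on chromosome 6 are overlapping models with 28, 30 and 30 elements, of which the windows share at least 28, and the only TSS element among them had a score of 9.74. IGDB25624 and IGDB25625 on chromosome 8 share 28 elements and had TSS scores of 208 and 227. The windows of these 5 genes are therefore not independent entries.

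Among all 80 genes, 9 had no TSS element. Besides creb3l2, creb3l3b and MAFG these were zgc:153924, with 14 elements, and IGDB03600, IGDB07145, IGDB07698, IGDB08806 and IGDB08807. IGDB07145 lies 10.1 kb from atf3 and has 15 of its 16 elements in common with it. Only creb3l2 and creb3l3b of the 9 were matched to a RefSeq gene over at least 50% of the joint length. Among matched genes 63 of 65 bZIP genes (96.9%) had a TSS element, against 1107 of 1188 other TF genes (93.2%). Among genes not matched in this way the shares were 8 of 15 (53.3%) and 54.5%. Of the 65 matched bZIP genes, 64 were matched to a protein-coding gene. The TSS score of the matched genes had a median of 227 for bZIP genes and 128 for other TF genes. The strongest TSS element was merged from 9 or more peaks at 78.5% against 53.9% of them. The difference in strength was thus present among genes matched to RefSeq as well. The part of the gene models in the missing TSS elements was not tested beyond this.

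Several bZIP genes are present in 2 copies, as are many genes in teleost fish after the genome duplication of their ancestor. In 11 pairs recognised by their names, the copies differed by a median of 8 elements (3 to 19). The SD over all bZIP genes was 8.27 elements, and pairs of unrelated genes were not compared. The genes named mafb, with TSS scores of 387 and 42.8, were not paired, nor were mafbb, MAFG and mafga. The ratio of the higher to the lower TSS score had a median of 2.11 over the 10 pairs with a TSS element at both copies (1.01 to 7.44), and in 6 of these pairs it was above 2. The copy with more elements had the higher TSS score in 6 of the 10 pairs. The fosa and jdp2 pairs compare the same 2 loci, whose windows hold largely the same elements, so they are not independent entries. The pairs that differed least at the TSS were the Dbp genes and the creb1 genes. Among these 10 pairs, the greatest ratio was that of fosab over fosaa, 7.44, followed by creb5b over creb5a, 5.56. In junb the copy on chromosome 8, junbb, had 30 elements and 440 at the TSS, and the copy on chromosome 1, junba, had 22 and 179. The annotated spans of fosaa and junba share only 65.8% and 52.3% of their joint length with a RefSeq gene, so their TSSs are less certain.

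**Figure D5:**
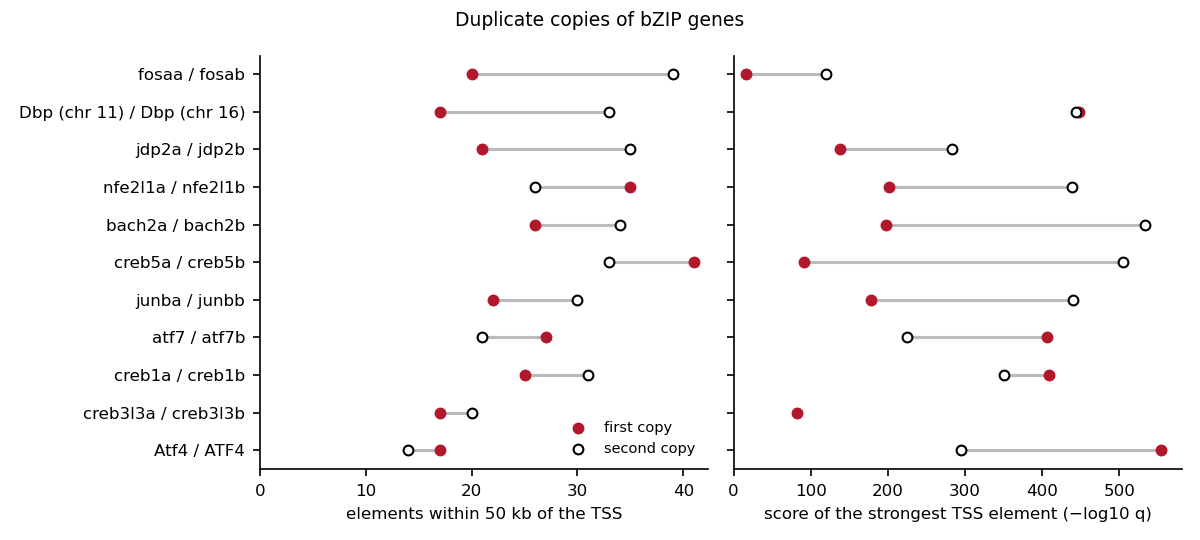
Number of elements within 50 kb of the TSS (left) and score of the strongest TSS element (right) in 11 pairs of bZIP gene copies, with the first named copy as a filled red point and the second as an open one. creb3l3b has no TSS element and no point on the right. The pair fosaa and fosab differs most in number (20 and 39), and the Dbp genes lie almost on each other at the TSS (448 and 444).

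Elements within 50 kb need not belong to the bZIP gene. For the 65 matched bZIP genes, the bZIP gene was the closest RefSeq gene body for 26.9% of 1793 pairs, against 31.1% for the 1188 matched other TF genes. This came to a median of 5 elements per bZIP gene. mafb on chromosome 7 was the closest gene for 30 of its 38 elements and bach2b for 26 of its 34, while at fosab, nfe2 and batf 7 of 39, 3 of 38 and 3 of 38 elements were closest to the gene. High numbers of elements within 50 kb thus included many that lay nearer to another gene. By position along the gene, 46.6% of the pairs lay upstream, 5.94% at the TSS, 8.02% in the gene body and 39.5% beyond the gene, against 45.6, 5.77, 13.4 and 35.1% for other TF genes.

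Genes that act on bZIP proteins were looked up by a list of 24 symbols, of which 9 were found in the RefSeq table. All 9 had an element within 1 kb of one of their ends, against 82.5% of all 22058 protein-coding genes, and they had a median of 23 elements within 50 kb, against 22.5. The numbers are means over both gene ends, since the table gives no strand. eif2ak4, the amino acid sensor upstream of ATF4, had 45.5 elements, keap1, the inhibitor of NRF2, had 34, and ern1, the enzyme that splices xbp1, had 31.5. eif2ak3, the kinase PERK, had 15.5, the fewest. The medians of the list and of all coding genes nearly coincide.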

How the data were processed

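ATAC-seq reads of 18 whole-embryo libraries had been trimmed with Trimmomatic 0.36, aligned with Bowtie2 2.3.4.1 and used for peak calling with MACS2 2.1.2, per the labels and the paper's methods. In the list the authors deposited, each element has a score, read as −log10 of the q value (all above 7, the authors' limit), and a number of 1 to 29, read as a count of merged stage-level peaks. How scores of merged elements were made is not given in the sources used here. TF families and gene positions came from the study's annotation of 1646 TF genes, names from its motif table or RefSeq (joint share of at least 50%).

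Elements were placed by midpoint (TSS: annotated start on the forward and end on the reverse strand). Python 3.11.15, NumPy 2.4.6, pandas 2.3.3, SciPy 1.17.1 and Matplotlib 3.10.9 were used, and placement was tested on simulated data. Shares have 95% Wilson intervals. All libraries are pooled and the depth per library is unknown, so no test between groups was made. The rule that set the members used the annotated family and no accessibility value. The family, the subfamilies and the list of acting genes were nevertheless chosen with earlier results of these data known. Genes were named if they had the most or fewest elements (overall or in a subfamily), the strongest elements or no TSS element, belonged to a pair or lay next to another member. Other genes were named for their role after their values had been seen. Alternative settings concerned the window, the limits at the TSS, the elements, the genes compared, the TSS used and leaving out each chromosome. No sequences are shown.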

Additional observations from a re-analysis of the deposited data

How the results depend on the processing

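Of 330 alternative values, 320 kept their direction and moved by less than the SD over bZIP genes (medians), the 95% interval (shares) or 1.5 times (distinct elements), and 10 did not. These limits are wide for the differences between groups. The SD of 8.27 elements exceeds the difference of 3, so a difference could nearly vanish and still be counted as kept. Most of the 330 values came from leaving out a single chromosome, so the tally says little about how stable the differences are. The median number of elements per bZIP gene was 14 within 25 kb, 52 within 100 kb, and 14 with only elements of at least the median score, and the distinct elements numbered 1048, 3620 and 1090. TSS elements were found at 78.8% of bZIP genes with a limit of 500 bp and at 96.9% of the genes matched to RefSeq, a restriction chosen after seeing the data. Without C2H2 zinc finger genes in the comparison, the difference in this share was −0.622 percentage points in place of 4.91. Its other values ran from 1.36 (limit of 500 bp) to 9.03 (elements of at least the median score), with 1.99 to 7.45 when a chromosome was left out, and the difference in the median number of elements, 3, ran from 1 to 5, so the size of neither difference was stable. With 10 or more merged peaks, the share of bZIP genes at the TSS was 12.5% in place of 71.2%. That limit left 10 of 80 bZIP genes against 159 of 1566 other TF genes, so the difference depended on the limit. The difference in median TSS score, 104, stayed between 89.7 and 127 with each chromosome left out. No paired analysis was possible because the deposited list pools all replicates. Scores per stage, and thus the timing of the elements, could not be measured, and depth limits which weak elements were called.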
